A study of Mus musculus with 63 samples.

Results

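The miR-15 and miR-16 family was followed as 8 mature miRNA names, mmu-miR-15a-5p, mmu-miR-15b-5p, mmu-miR-16-5p, mmu-miR-195a-5p, mmu-miR-497a-5p, mmu-miR-322-5p, mmu-miR-322-3p and mmu-miR-503-5p, which were taken by name together with the 4 genomic clusters that encode them. All 8 names were present in the count table, at 9 loci, because mature miR-16-5p is counted once on chromosome 14 and once on chromosome 3. The whole table holds 2110 loci of 1966 mature names, and 523 of these loci had no count in any library. Small RNA was sequenced from kidney cells of male C57BL/6 mice, 8 to 12 weeks old, that were sorted into 4 populations. CD45+F4/80hi cells were taken as macrophages (Macs) and CD45-CD31+ cells as endothelial cells (ECs), and the cells negative for both CD45 and CD31 gave PDGFR-β+ cells and, by binding of the lectin LTL, proximal tubular cells (PT cells). Kidneys came from sham-operated mice, from mice with unilateral ureteral obstruction for 2 days (UUO-2) or 7 days (UUO-7), and from mice whose ureter was reimplanted after 7 days of obstruction and that were followed for 2 weeks of reversal (R-UUO). The series holds 63 libraries from 16 mice, 4 per condition, with 4 libraries in each of the 16 groups except PDGFR-β+ cells at UUO-7, where 3 remained after the authors set 1 aside as an outlier of their principal component analysis. The mice of each condition were those whose injury marker Havcr1 lay closest to the group mean, so the spread between libraries may be smaller than that between unselected animals. A surface gate defines each population, and the PDGFR-β gate can hold fibroblasts, pericytes and other mesenchymal cells together.

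Animal miRNAs find their targets mainly through the seed, the short stretch near the 5′ end that pairs with complementary sites in messenger RNAs, so miRNAs that share a seed share many predicted targets. The miR-15 and miR-16 family is known for repressing cyclins and other cell cycle genes and the survival gene BCL2, and the human counterpart of the Dleu2 locus, which encodes miR-15a and a copy of miR-16, is frequently deleted in chronic lymphocytic leukaemia. The family is spread over clusters with hosts and promoters of their own, and miR-322 (the mouse counterpart of human miR-424) and miR-503 lie on chromosome X beside several miRNAs of other seeds.

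The mature sequences are shown because they define the family and set apart the members that do not fully belong to it. They are taken from RefSeq for build GRCm38.p6, written 5′ to 3′, with the seed, bases 2 to 8, in capitals.
mmu-miR-16-5p: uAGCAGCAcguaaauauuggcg
mmu-miR-15a-5p: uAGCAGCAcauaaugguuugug
mmu-miR-15b-5p: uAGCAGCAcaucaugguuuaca
mmu-miR-195a-5p: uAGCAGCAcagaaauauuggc
mmu-miR-497a-5p: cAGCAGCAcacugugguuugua
mmu-miR-322-5p: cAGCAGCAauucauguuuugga
mmu-miR-503-5p: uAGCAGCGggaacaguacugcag
mmu-miR-322-3p: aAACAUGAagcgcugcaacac
Of these 8 names, 6 carry the seed AGCAGCA, and miR-503-5p differs from miR-16-5p inside the seed by A8G, with positions counted from 1 at the 5′ end and the base of miR-16-5p given first. The remaining name, miR-322-3p, is the opposite arm of the miR-322 hairpin and has an unrelated seed. Of the 1675 mature names of the table with a sequence, 10 (0.597%) carried the same bases 2 to 8, and the 4 that are not members (miR-195b, miR-6342, miR-6353 and miR-6419) had between 0 and 2 counts in any library. Over the whole sequence the nearest relative of miR-16-5p was miR-195a-5p, with the same base at 19 of 21 positions, followed by miR-15a-5p at 16 of 22 and miR-15b-5p at 14 of 22. The other 3 names with a full or near seed, miR-322-5p, miR-503-5p and miR-497a-5p, matched at 12, 12 and 11 of 22 positions.

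In GRCm38, miR-15a-5p (chr14:61632075-61632096, minus strand) lay 117 bases from miR-16-5p (chr14:61631936-61631957), both in an intron of the noncoding gene Dleu2. On chromosome 3, miR-15b-5p (chr3:69009775-69009796, plus strand) lay 121 bases from the second copy of miR-16-5p (chr3:69009918-69009939), both in an intron of Smc4, which encodes a condensin subunit. The pair miR-497a-5p (chr11:70234730-70234751) and miR-195a-5p (chr11:70235062-70235082) lay 310 bases apart on the plus strand of chromosome 11. On the minus strand of chromosome X, miR-322-5p (chrX:53054306-53054327) and its opposite arm miR-322-3p (chrX:53054269-53054289) shared a hairpin, and miR-503-5p (chrX:53054027-53054049) lay 256 bases from miR-322-5p. The hairpin Mir497b is annotated on the strand opposite miR-497a-5p, although no other counted locus overlapped miR-497a-5p. The strand used in counting is not given in the sources used here. Whether the miR-497a-5p count holds reads of Mir497b was therefore not determined. The copies of miR-16-5p have 1 mature sequence, and the chromosome 14 locus held between 62.8% and 65.3% (median 63.9%) of their counts in every library. They are therefore read as 1 measurement, and its values are given for the chromosome 14 locus. The fits kept both loci, so the counts of members called below include each of them and hold a miR-16-5p result at both.

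Library totals ran from 616565 to 10819385 counts and were smallest in PT cells (median 1043054) and largest in ECs (median 7577135). Levels are CPM (counts scaled to a fixed library total) after TMM scaling, either over all libraries, which serves to compare cell types, or among the libraries of 1 cell type, which serves to compare conditions, and values on the 2 scales are not interchangeable. The summed level of the marker miRNAs of each population separated its libraries from all others. The EC list (both arms of miR-126a) reached 93098 to 173192 CPM in ECs and at most 3524 CPM elsewhere, and the leukocyte list (miR-142a, miR-223) reached 14705 to 41968 CPM in Macs and at most 698 CPM elsewhere. The PT list (miR-192, miR-194, miR-215) reached 16093 to 130314 CPM in PT cells and at most 5217 CPM elsewhere. The PDGFR-β list (miR-143, miR-145a, miR-199a, miR-214) reached 92519 to 400902 CPM in PDGFR-β+ cells and at most 46035 CPM elsewhere. For late injury the paper reports that PDGFR-β+ cells lost miR-143 and miR-145 and gained miR-199 and miR-214. A change in the sum of this list is therefore not a change of each of its members. Red blood cells carry much miR-16. Their list (miR-451a, both arms of miR-144, miR-486a and miR-486b) summed to 554 to 1135 CPM in Macs and to at most 331 CPM elsewhere, so it was highest where miR-16-5p was highest. Within it miR-451a stayed between 0 and 8.16 CPM in every library, so most of the sum in Macs came from miR-144 and miR-486. The part of red blood cells in the miR-16-5p level was not tested. The remaining lists were miR-150-5p for lymphocytes, which was highest in ECs (1058 to 3652 CPM) and reached at most 744 CPM elsewhere, and the miR-200 family with miR-141 for other epithelium, which was highest in PT cells (4856 to 9935 CPM).

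Macs held the most of the family. The loci of the members with the seed AGCAGCA were summed, and the members without this seed were left out. The summed loci took a median of 4.21% of all counts in Macs (range 2.21% to 4.88%). The median was 0.972% in PDGFR-β+ cells, 0.938% in PT cells and 0.856% in ECs. miR-16-5p made up 92.8% of the summed counts in Macs and 94.0% in PT cells. Its share of the sum was lower in ECs, at 66.1%, and in PDGFR-β+ cells, at 65.4%. There the summed chromosome X and chromosome 11 members made up most of the rest.

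The members fell into 2 patterns across cell types on the scale of all libraries. miR-16-5p, miR-15a-5p and miR-15b-5p were highest in Macs. The level of miR-16-5p had a median of 14979 CPM (range 8104 to 17474) over the 16 Mac libraries, above every library of PDGFR-β+ cells, at 5424 CPM (range 4231 to 6194), of ECs, at 5401 CPM (range 3874 to 6735), and of PT cells, at 4624 CPM (range 3691 to 6201). These other 3 populations overlapped one another over all conditions, but in sham every PDGFR-β+ library (5424 to 6194 CPM) lay above every PT library (3979 to 4548 CPM). miR-15b-5p had a median of 199 CPM (range 114 to 267) in Macs, again above every other library, and of 48.5 CPM (range 35.6 to 74.4) in ECs, 43.9 CPM (range 13.6 to 85.9) in PDGFR-β+ cells and 34.8 CPM (range 19.9 to 49.9) in PT cells. The place of PDGFR-β+ cells came from the pooled conditions, since in sham they were lowest, at 13.6 to 19.1 CPM, below every PT library, at 19.9 to 49.9 CPM. miR-15a-5p followed the same order at the top, with 1045 CPM (range 449 to 1733) in Macs, but over all conditions its Mac libraries overlapped those of PDGFR-β+ cells, at 355 CPM (range 150.2 to 601). Within each condition the Macs lay above the PDGFR-β+ cells without overlap, with 1415 to 1733 CPM against 494 to 601 CPM in sham and 521 to 685 CPM against 172 to 178 CPM at UUO-7. ECs at 319 CPM (range 216 to 394) and PT cells at 239 CPM (range 174 to 364) overlapped with PDGFR-β+ cells and with each other.

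The chromosome 11 pair and the chromosome X members were instead highest in PDGFR-β+ cells and ECs. miR-195a-5p had a median of 893 CPM (range 669 to 1074) in PDGFR-β+ cells and of 505 CPM (range 366 to 631) in ECs, with no overlap between these 2 populations. Both lay above every library of PT cells, at 37.2 CPM (range 15.9 to 106), and of Macs, at 35.4 CPM (range 21.9 to 83.5). Its partner miR-497a-5p ran in the same order at the top, with 931 CPM (range 799 to 1131) in PDGFR-β+ cells, 360.2 CPM (range 209 to 467) in ECs, 26.0 CPM (range 12.3 to 69.3) in Macs and 23.7 CPM (range 11.2 to 86.0) in PT cells. Here too only Macs and PT cells overlapped. Over the 63 libraries the log2 CPM of the pair correlated with a Pearson r of 0.983, a description of libraries that share cell types and mice.

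miR-322-5p was the most abundant chromosome X member, with a median of 3041 CPM (range 1711 to 7738) in ECs and 2594 CPM (range 556 to 3857) in PDGFR-β+ cells, which overlapped. Its level was 365 CPM (range 239 to 574) in Macs and 115 CPM (range 21.1 to 1229.9) in PT cells, with overlap at each step of this order, and the PT range was set at its upper end by 1 R-UUO library. In sham alone PDGFR-β+ cells came first, at 2033 to 3789 CPM, and overlapped ECs, at 1711 to 2729 CPM, while Macs and PT cells followed without overlap. The opposite arm miR-322-3p had a median of 943 CPM (range 741 to 1183) in ECs and 839 CPM (range 207 to 2136) in PDGFR-β+ cells, both above every library of PT cells, at 84.0 CPM (range 23.4 to 145), and of Macs, at 62.5 CPM (range 31.3 to 124), while the latter 2 populations overlapped. Here too PDGFR-β+ cells came first in sham, at 993 to 2136 CPM against 837 to 994 CPM in ECs, with overlap, and sham Macs lay above sham PT cells. miR-503-5p was near the limit of detection, with at most 40 counts in a library, a median of 3.48 CPM in PDGFR-β+ cells and 3.23 CPM in ECs, a median of 0.770 CPM in Macs, and no counts in 14 of 16 PT libraries, where a count of 0 allows up to 3 counts. Its neighbours in this order all overlapped over the pooled conditions, and in sham ECs lay above Macs.

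**Figure D1:**
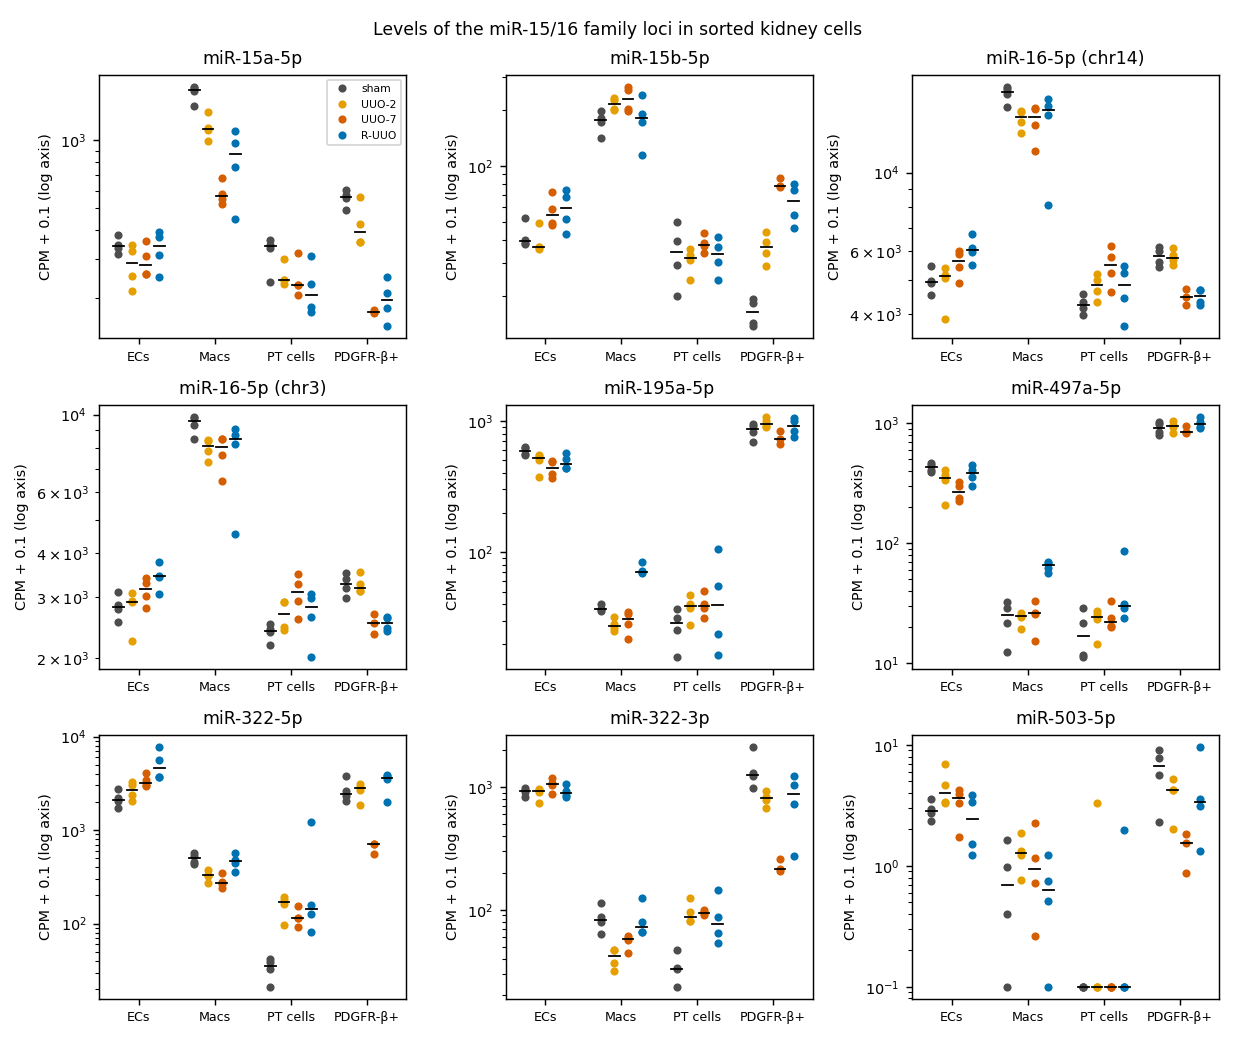
Level of each of the 9 member loci (CPM after TMM scaling over all libraries, plus 0.1, log axis) in the 4 cell types, with 1 point per library coloured by condition and a bar at the median of each group. The miR-15 and miR-16 panels peak in Macs and the miR-195a, miR-497a, miR-322 and miR-503 panels in PDGFR-β+ cells and ECs, where miR-195a-5p had medians of 893 CPM and 505 CPM against 35.4 CPM in Macs.

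Each cell type was tested against the mean of the other 3 in edgeR's quasi-likelihood fit over all 63 libraries with Benjamini-Hochberg adjustment over 671 loci, and a call required an adjusted p under 0.05 and a change above 1.5-fold. Macs had 4 of 9 member loci higher and 4 lower, where 57.2% of all loci were called. The log2 difference was 2.27 (SE 0.08, edgeR adjusted p = 9.03e-33) for miR-15b-5p, 1.75 (SE 0.07, edgeR adjusted p = 5.38e-29) for miR-15a-5p and 1.52 (SE 0.05, edgeR adjusted p = 5.04e-34) for miR-16-5p. It was -2.70 for miR-195a-5p and -2.72 for miR-497a-5p. PDGFR-β+ cells had 5 loci higher and 1 lower, where 51% of all loci were called. The pair miR-497a-5p, at 3.84 (SE 0.10, edgeR adjusted p = 7.74e-40), and miR-195a-5p, at 3.25 (SE 0.09, edgeR adjusted p = 5.94e-37), led there. ECs had 5 loci higher and 0 lower, where 52.5% of all loci were called, led by miR-322-5p at 2.79 (SE 0.14, edgeR adjusted p = 3.78e-25) and miR-322-3p at 2.70 (SE 0.10, edgeR adjusted p = 3.70e-32).

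All 9 member loci were lower in PT cells, where 59.8% of all loci were called, from -0.62 for miR-16-5p to -3.41 for miR-322-5p, leaving aside miR-503-5p with its libraries at 0. With over 50% of all loci called in each of these contrasts, the share of members called is no finding about the family, and the direction and size of each member carry the description. The calls of miR-15a-5p and miR-16-5p in PT cells, and that of miR-322-5p in Macs, were lost when libraries were scaled by their totals alone, which moved the median of all loci from -0.03 to 0.20 in PT cells and from -0.24 to 0.68 in Macs. The same scaling raised the members called to 9 in ECs, and in PDGFR-β+ cells 9 were called with it, with DESeq2 and with DESeq2's size factors.

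Changes with injury were tested in the same way among the libraries of each cell type, with the p-values adjusted over all loci tested there (330 in PT cells, 457 in Macs, 469 in ECs and 477 in PDGFR-β+ cells). The replicates are mice. The counts of a sorted population cannot separate a change within its cells from a change in the mix of cells inside the gate. All 9 members passed the filter on low counts in ECs and PDGFR-β+ cells, and 8 in Macs and PT cells, where miR-503-5p did not. In ECs, 1 of 9 members was higher at UUO-7 (11.5% of all loci were called) and 1 at R-UUO against sham (16.8%). edgeR called 0 EC members at UUO-2 against sham (1.71%), at UUO-7 against UUO-2 (1.92%) and at R-UUO against UUO-7 (1.07%), with 0, 1 and 2 members under an unadjusted p of 0.05 and 0 called by DESeq2 in each. In Macs, 1 of 8 members was lower at UUO-2 (27.6% of all loci) and 2 were lower at UUO-7 (43.1%). One was lower at UUO-7 against UUO-2 (30.6%), 3 were higher at R-UUO against UUO-7 (19.9%), and 2 were higher and 1 lower at R-UUO against sham (31.9%).

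In PT cells, 2 of 8 members were higher at UUO-2 (19.1% of all loci), 2 at UUO-7 (43%) and 3 at R-UUO against sham (38.8%). edgeR called 0 PT members at UUO-7 against UUO-2 (4.24%) and 0 at R-UUO against UUO-7 (1.52%), with 0 and 2 under an unadjusted p of 0.05 and 0 and 1 called by DESeq2. In PDGFR-β+ cells, 1 of 9 members was higher at UUO-2 (6.29% of all loci) and 1 was higher and 4 were lower at UUO-7 (48.2%). One was higher and 3 were lower at UUO-7 against UUO-2 (33.8%), 2 were higher at R-UUO against UUO-7 (3.98%), and 1 was higher and 1 lower at R-UUO against sham (41.7%). With DESeq2 and with its size factors 5 PDGFR-β+ members were called at R-UUO against sham and 7 at UUO-7 against UUO-2, where both loci of miR-16-5p are among those added. At UUO-7 against UUO-2 the other addition was miR-195a-5p. The shares of members called were near or below those of all loci in most of these comparisons, so the account below turns on which members moved and in which direction.

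The scaling sets where a change of 0 lies. At UUO-7 the median log2 change of all loci tested was 0.50 in PDGFR-β+ cells under TMM, 0.27 under DESeq2's size factors and 1.02 with library totals alone, and in Macs it was 0.22, 0.16 and 0.36. The median over the tested members was -0.43 in PDGFR-β+ cells, -0.16 in Macs, 0.30 in PT cells and 0.27 in ECs under TMM. At UUO-7 the distance of a member from the median of all loci differed by at most 0.05 between the 3 scalings, and it is given beside the TMM value where the scaling matters. At R-UUO in PT cells it differed by up to 0.66, for miR-322-5p.

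**Figure D2:**
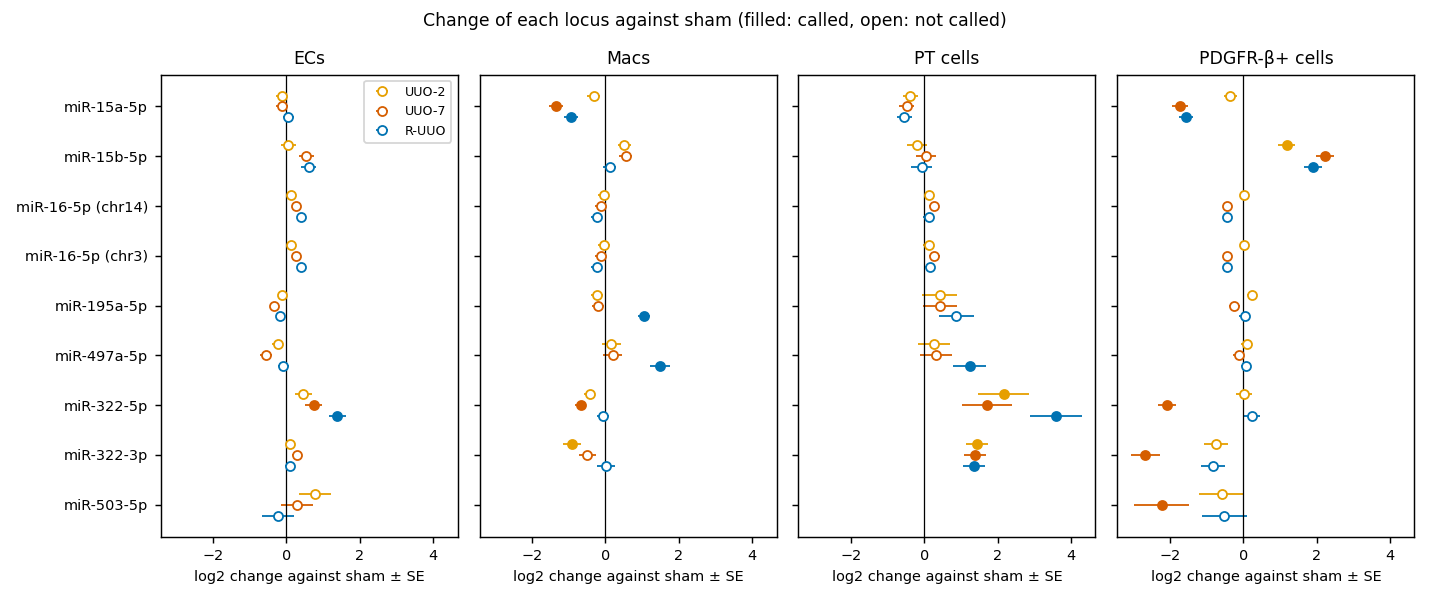
log2 change (x axis, TMM scaling within a cell type) of each member locus against sham at UUO-2, UUO-7 and R-UUO, with the SE derived from the edgeR test as bars, filled points for called changes and open points for the rest. miR-15a-5p and miR-15b-5p move in opposite directions in PDGFR-β+ cells (log2 changes of -1.73 and 2.24 at UUO-7), and the miR-322 arms fall there and rise in PT cells.

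miR-15a-5p, from the Dleu2 cluster, was lower with obstruction in the populations where it was most abundant. In Macs its level was 2702, 2216, 2703 and 2495 CPM in the 4 sham libraries, 1883, 2037, 2313 and 1859 CPM at UUO-2, 961, 914, 1084 and 1045 CPM at UUO-7 and 1609, 1751, 1174 and 764 CPM at R-UUO. Every UUO-7 library lay below every sham and UUO-2 library, and R-UUO lay below sham and overlapped UUO-7. The level fell 2.53-fold from sham to UUO-7 (log2 change -1.34, SE 0.19, edgeR adjusted p = 2.18e-05) and was still 1.91-fold lower at R-UUO (log2 change -0.93, SE 0.19, edgeR adjusted p = 8.26e-04). Relative to the median of all loci the change at UUO-7 was -1.55. The summed leukocyte list of the Macs was lower over the same conditions, going from 34894 to 41968 CPM in sham to 17978 to 21212 CPM at UUO-7 on the scale of all libraries. Listed for lymphocytes but highest in ECs, miR-150-5p was higher in Macs without overlap, at 92.4 to 164 CPM in sham, 235 to 407 CPM at UUO-2 and 454 to 744 CPM at UUO-7. The PT list was lower, at 3511 to 5217 CPM in sham and 1237 to 2263 CPM at UUO-7. The part of these markers in the result was not tested.

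In PDGFR-β+ cells miR-15a-5p measured 361, 501, 419 and 479.9 CPM in sham, 307, 343, 458 and 276 CPM at UUO-2, 128, 133 and 138 CPM at UUO-7 and 122, 179.6, 126 and 172 CPM at R-UUO. The UUO-7 and R-UUO libraries all lay below the sham and UUO-2 libraries. It fell 3.31-fold at UUO-7 (log2 change -1.73, SE 0.21, edgeR adjusted p = 6.69e-06) and remained 2.94-fold below sham at R-UUO (log2 change -1.55, SE 0.19, edgeR adjusted p = 6.33e-06), with no call between R-UUO and UUO-7 (log2 change 0.17, SE 0.20, edgeR adjusted p = 0.706). Relative to the median of all loci the change at UUO-7 was -2.22. In ECs miR-15a-5p gave a log2 change of -0.12 at UUO-7 (SE 0.16) and in PT cells one of -0.48 (SE 0.20), neither of which was called.

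miR-15b-5p, from the Smc4 cluster, went the other way in PDGFR-β+ cells. Its level was 13.3, 16.6, 10.7 and 10.9 CPM in sham, 33.7, 23.1, 27.7 and 34.1 CPM at UUO-2, 62.1, 59.9 and 61.4 CPM at UUO-7 and 65.1, 39.1, 52.0 and 37.5 CPM at R-UUO. Sham, UUO-2 and UUO-7 did not overlap in this order, and every R-UUO library lay above every UUO-2 library. It was 2.29-fold higher at UUO-2 (log2 change 1.19, SE 0.23, edgeR adjusted p = 0.00367), 4.72-fold higher at UUO-7 (log2 change 2.24, SE 0.25, edgeR adjusted p = 3.30e-06) and 3.74-fold higher at R-UUO (log2 change 1.90, SE 0.23, edgeR adjusted p = 8.26e-06) than in sham. The change at UUO-7 relative to the median of all loci was 1.74. miR-15b-5p was highest in Macs, and the summed leukocyte list of the PDGFR-β+ libraries was higher as well, going from 53.0 to 171 CPM in sham to 283 to 329 CPM at UUO-2 and 273 to 698 CPM at UUO-7, against 14705 to 41968 CPM in Macs themselves. At R-UUO that list was at 121 to 205 CPM, and its part in the result was not tested.

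In Macs miR-15b-5p measured 281, 310.1, 229 and 252 CPM in sham, 392, 365, 393 and 375 CPM at UUO-2 and 468, 355, 367 and 391 CPM at UUO-7. Both injury groups lay above sham without overlap, but the change of 1.47-fold at UUO-7 stayed under the required 1.5-fold (log2 change 0.56, SE 0.18, edgeR adjusted p = 0.015). At R-UUO its level, 400.5, 303, 267 and 194 CPM, overlapped both. The lymphocyte marker of the same Mac libraries, given above, was higher at UUO-2 and UUO-7 as well, and its part was not tested. In ECs the log2 change at UUO-7 was 0.54 (SE 0.21) and in PT cells it was 0.05 (SE 0.27), neither called.

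The ratio of miR-15a-5p to miR-15b-5p within a library does not depend on how libraries are scaled. In PDGFR-β+ cells its log2 was 4.75, 4.90, 5.27 and 5.44 in the sham libraries and 3.18, 3.89, 4.04 and 3.01 in those of UUO-2. At UUO-7 it was 1.05, 1.15 and 1.16, and after reversal it was 0.90, 2.20, 1.28 and 2.19. In linear terms the geometric mean ratio of 34.1 in sham mice became 11.5 after 2 days, 2.17 after 7 days and 3.12 at R-UUO. In Macs the ratio was likewise lowest at UUO-7, with geometric means of 9.46, 5.28, 2.54 and 4.48 in the same order of conditions. In ECs the geometric mean went from 8.23 in sham to 5.18 at UUO-7, and in PT cells from 9.57 to 6.36.

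The log2 ratio of miR-15a-5p to miR-15b-5p differed from sham by -1.56 at UUO-2 and -3.97 at UUO-7 in PDGFR-β+ cells, by -0.84 and -1.90 in Macs and by -0.67 at UUO-7 in ECs, each without overlap. Each of these 5 comparisons gave p = 0.0286 in a two-sided exact permutation test, the smallest p that 4 or 3 libraries against 4 can give, and 0.1 after adjustment over the 28 ratio comparisons made, so none passed. The ratio of PT cells at UUO-7 changed by -0.59 and overlapped sham (exact p = 0.0571, adjusted 0.133).

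**Figure D3:**
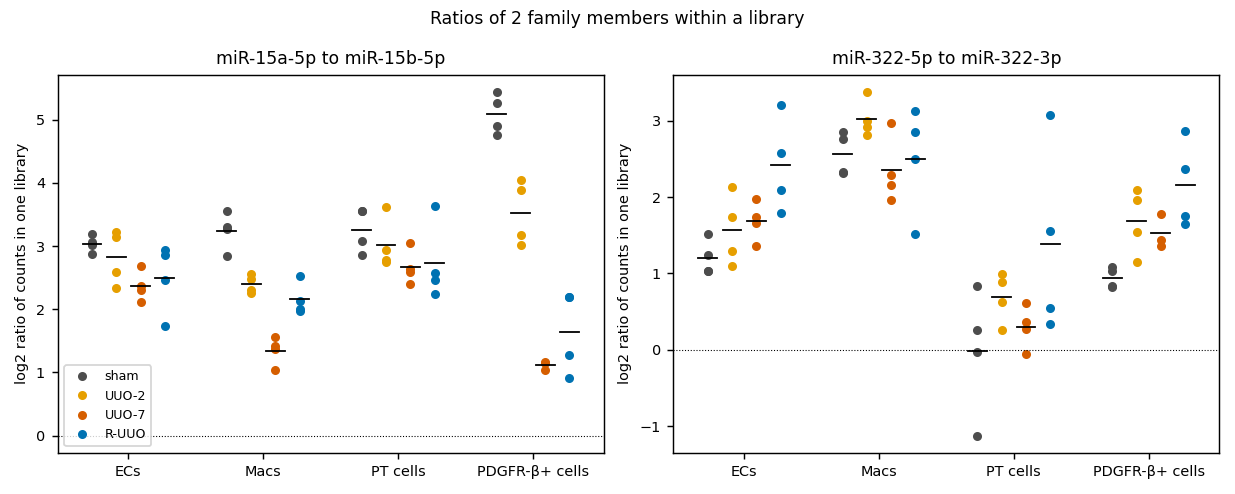
log2 ratio of counts within a library (y axis) of miR-15a-5p to miR-15b-5p and of miR-322-5p to miR-322-3p by cell type and condition, with 1 point per library and a bar at each group mean. The miR-15a-5p to miR-15b-5p ratio is lowest at UUO-7 in PDGFR-β+ cells and Macs, with geometric mean ratios of 2.17 and 2.54 there.

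miR-16-5p, the most abundant member and a product of both of these clusters, had no called change with injury under TMM scaling. In PDGFR-β+ cells its level was 3960.5, 5398, 4237 and 4797 CPM in sham, 4905, 4679, 4487 and 4751 CPM at UUO-2, 3399, 3428 and 3392 CPM at UUO-7 and 3435, 3379, 3264 and 3513 CPM at R-UUO. UUO-7 and R-UUO lay below sham without overlap, and the 1.35-fold difference at UUO-7 was under the required size (log2 change -0.43, SE 0.11, edgeR adjusted p = 0.00356). With DESeq2's size factors the log2 change was -0.67 and was called, and with library totals alone it turned to 0.09 on the log2 scale, while relative to the median of all loci it was -0.93. In ECs miR-16-5p was 1.33-fold higher at R-UUO than in sham (log2 change 0.41, SE 0.11, edgeR adjusted p = 0.0126), under the required size. The log2 change at UUO-7 was -0.12 in Macs (SE 0.15), 0.27 in ECs (SE 0.11) and 0.26 in PT cells (SE 0.14), none of them called.

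No change of the chromosome 11 pair with obstruction was called under TMM scaling in the populations where it was high. In PDGFR-β+ cells miR-195a-5p gave a log2 change of -0.24 (SE 0.16) and miR-497a-5p one of -0.12 (SE 0.15) at UUO-7, with overlap between the groups. In ECs the pair was lower at UUO-7 without overlap, 1.48-fold for miR-497a-5p (log2 change -0.57, SE 0.16, edgeR adjusted p = 0.0257) and 1.27-fold for miR-195a-5p (log2 change -0.34, SE 0.12, edgeR adjusted p = 0.0614), neither of which was called. The called changes of the pair in Macs were at reversal. There miR-195a-5p measured 57.3, 58.1, 58.1 and 59.1 CPM in sham, 41.9, 57.8, 45.5 and 53.4 CPM at UUO-2, 61.4, 38.4, 52.6 and 51.9 CPM at UUO-7 and 138, 112, 110.1 and 118 CPM at R-UUO. All 4 R-UUO libraries lay above all others, 2.06-fold above sham (log2 change 1.04, SE 0.16, edgeR adjusted p = 8.83e-05) and 2.35-fold above UUO-7 (log2 change 1.23, SE 0.17, edgeR adjusted p = 1.32e-04).

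miR-497a-5p rose in the same R-UUO Macs, from 33.8, 19.2, 52.6 and 42.5 CPM in sham and 57.6, 26.6, 48.2 and 39.4 CPM at UUO-7 to 113, 99.6, 87.3 and 118 CPM at R-UUO. The R-UUO libraries again lay above all others, 2.80-fold above sham (log2 change 1.49, SE 0.27, edgeR adjusted p = 2.95e-04). The pair is most abundant in PDGFR-β+ cells, and the summed PDGFR-β list of the Mac libraries was higher with it, going from 1994 to 4986 CPM in sham and 3144 to 4616 CPM at UUO-7 to 6781 to 9589.9 CPM at R-UUO, against at least 92519 CPM in PDGFR-β+ cells. Its part in the result was not tested. In PT cells miR-497a-5p was called higher at R-UUO than in sham (log2 change 1.23, SE 0.44, edgeR adjusted p = 0.0332), with 25.9, 33.2, 13.5 and 13.4 CPM in sham and 104, 26.1, 34.2 and 34.8 CPM at R-UUO. The groups overlapped, and without the R-UUO library of replicate 1 the change was 0.59 and was not called (edgeR adjusted p = 0.244). The call was also lost with library totals alone, with the compared groups only and without replicate 3 or 4.

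The chromosome X members fell in PDGFR-β+ cells after 7 days of obstruction. miR-322-5p measured 2766, 2261, 1536 and 1847 CPM in sham, 2669, 2167, 1516 and 2240.3 CPM at UUO-2, 513, 539 and 445 CPM at UUO-7 and 1614, 2526, 2619 and 3132 CPM at R-UUO. The 3 UUO-7 libraries lay far below all the others, and the other 3 groups overlapped. It was 4.21-fold lower at UUO-7 than in sham (log2 change -2.07, SE 0.25, edgeR adjusted p = 6.78e-06), 4.30-fold lower than at UUO-2 (log2 change -2.11, SE 0.25, edgeR adjusted p = 1.72e-05), and at R-UUO 4.95-fold above UUO-7 (log2 change 2.31, SE 0.25, edgeR adjusted p = 7.13e-05). Between R-UUO and sham the log2 change was 0.23 (SE 0.22) and was not called.

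The opposite arm miR-322-3p fell at UUO-7 as well. It measured 1559, 1068, 749.8 and 1037 CPM in sham, 684, 744, 686 and 525 CPM at UUO-2, 149.7, 199 and 173 CPM at UUO-7 and 222, 749, 509 and 1004 CPM at R-UUO. UUO-2 already lay below sham without overlap, with no call, and UUO-7 lay below every other library. The level fell 6.35-fold at UUO-7 (log2 change -2.67, SE 0.40, edgeR adjusted p = 5.41e-05). The rise from UUO-7 to R-UUO was called (log2 change 1.84, SE 0.38, edgeR adjusted p = 0.0173) but lost its call when only the 2 compared groups were fitted and without replicate 2, 4 or 5. Relative to the median of all loci the changes at UUO-7 were -2.57 for miR-322-5p and -3.16 for miR-322-3p.

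The ratio of the 2 arms within a library was examined in the same way. The log2 ratio of miR-322-5p to miR-322-3p in PDGFR-β+ cells was 0.83, 1.08, 1.03 and 0.83 for the sham mice and 1.96, 1.54, 1.14 and 2.09 for UUO-2. It was 1.78, 1.44 and 1.36 for UUO-7 and 2.86, 1.75, 2.36 and 1.64 for R-UUO. All injury libraries lay above all sham libraries, by 0.74 at UUO-2 and 0.58 at UUO-7 (two-sided exact permutation p = 0.0286 each, the smallest possible, adjusted 0.1). The remaining ratio that did not overlap was that of miR-195a-5p to miR-497a-5p in ECs at UUO-7, with a log2 difference of 0.23. This made 8 of 28 ratio comparisons without overlap, and none passed adjustment. The share without overlap among other pairs of loci was not computed, so this count is no finding about the family.

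miR-503-5p had 40, 20, 19 and 5 counts in the sham PDGFR-β+ libraries and 3, 6 and 3 counts at UUO-7, or 5.61, 4.82, 6.77 and 1.75 CPM against 0.563, 1.32 and 1.16 CPM. The groups did not overlap, and the fall was called (log2 change -2.23, SE 0.75, edgeR adjusted p = 0.0203), but not with library totals alone or without replicate 2. The opposite arm miR-503-3p was counted more often, with 47.4, 46.8, 18.2 and 30.5 CPM in sham and 6.75, 9.92 and 2.70 CPM at UUO-7, a called fall (log2 change -2.44, SE 0.47, edgeR adjusted p = 6.17e-04) without overlap. Of the 14 opposite arms and chromosome X neighbours tested in PDGFR-β+ cells, 7 were lower and 0 higher at UUO-7, where 48.2% of all loci were called in either direction and 14.3% were called lower, and all 7 belonged to the chromosome X group. They were miR-503-3p, miR-351-5p, miR-450b-5p, both loci of miR-450a-5p and both arms of miR-542. The most abundant of them, miR-351-5p, a miRNA of another seed, went from 9156, 7401, 4608 and 6084 CPM in sham to 1568, 1810.4 and 1738 CPM at UUO-7 and 3074, 5571, 5626 and 7133 CPM at R-UUO, 3.99-fold lower at UUO-7 than in sham (SE 0.27 on the log2 scale, edgeR adjusted p = 2.10e-05), with UUO-7 below all others. The summed PDGFR-β list of the same libraries went from 326479 to 398349.7 CPM in sham to 145413 to 174163 CPM at UUO-7. It stood at 92519 to 159564 CPM at R-UUO, where the miR-322-5p libraries overlapped those of sham. This sum joins members for which the paper reports opposite changes in late injury. The EC list in these libraries went from 2041 to 2588 CPM in sham to 618 to 1586 CPM at UUO-7 and 465 to 706 CPM at R-UUO. The part of both lists in the result was not tested.

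In PT cells the miR-322 arms rose from a low level. miR-322-5p measured 46.4, 24.3, 37.9 and 50.4 CPM in sham, 187, 221, 110.3 and 198 CPM at UUO-2, 124, 103, 172 and 123 CPM at UUO-7 and 1491, 89.4, 189 and 143 CPM at R-UUO. All 12 injury and reversal libraries lay above all 4 sham libraries, and 1 R-UUO library stood at 1491 CPM, far from the rest. It was 4.48-fold higher at UUO-2 (log2 change 2.16, SE 0.69, edgeR adjusted p = 0.0333) and 3.28-fold higher at UUO-7 (log2 change 1.71, SE 0.68, edgeR adjusted p = 0.0469) than in sham. Both calls were lost without any 1 of replicates 1 to 4, and that of UUO-7 also without replicate 5 and with DESeq2's size factors. At R-UUO it was 12.02-fold higher than in sham (log2 change 3.59, SE 0.71, edgeR adjusted p = 0.00109), and without the R-UUO library of replicate 1 it was 3.56-fold higher (edgeR adjusted p = 2.23e-04).

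miR-322-3p measured 38.8, 53.7, 38.8 and 28.0 CPM in sham PT cells, 93.6, 143, 91.7 and 106 CPM at UUO-2, 96.8, 107, 112 and 101 CPM at UUO-7 and 176, 70.8, 63.5 and 97.5 CPM at R-UUO. Again all 12 libraries lay above sham, with 2.73-fold at UUO-2 (log2 change 1.45, SE 0.30, edgeR adjusted p = 0.00414), 2.62-fold at UUO-7 (log2 change 1.39, SE 0.30, edgeR adjusted p = 0.0014) and 2.58-fold at R-UUO (log2 change 1.37, SE 0.30, edgeR adjusted p = 0.00223). Among the neighbours, miR-351-5p went from 154, 137, 90.2 and 98.5 CPM in sham to 801, 1195, 726 and 1209 CPM at UUO-2, with no overlap (log2 change 3.04, SE 0.53, edgeR adjusted p = 0.00126). The summed PDGFR-β list of the PT libraries was higher as well, going from 1617 to 3496 CPM in sham to 6672 to 10151 CPM at UUO-2 and 7031 to 18215 CPM at UUO-7. It was 3825 to 25839 CPM at R-UUO, with its highest value in the same R-UUO library, whose PT list was also the lowest of all PT libraries at 16093 CPM. The part of other cells in these rises was not tested.

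**Figure D4:**
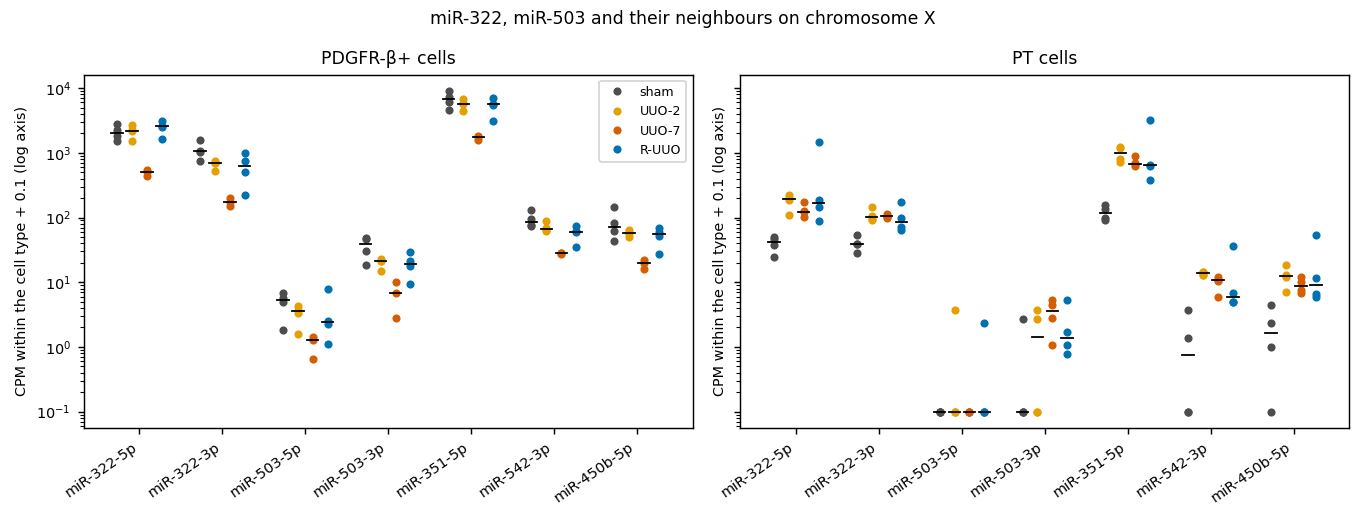
Level (CPM within the cell type, plus 0.1, log axis) of the chromosome X members and 4 of their neighbours in PDGFR-β+ cells and PT cells, with 1 point per library and a bar at each group median. For miR-322-5p, miR-322-3p and miR-351-5p the UUO-7 libraries lie lowest in PDGFR-β+ cells, and the sham libraries lie lowest in PT cells. In PT cells 1 R-UUO library stands at 1491 CPM of miR-322-5p.

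In ECs, miR-322-5p was the member with called changes. Its level was 1219.7, 1105, 1694 and 1356 CPM in sham, 1510.1, 2221, 1507 and 2153 CPM at UUO-2, 2369.8, 2127, 1908 and 2568 CPM at UUO-7 and 3974, 2186, 5417 and 2502 CPM at R-UUO. UUO-7 and R-UUO lay above sham without overlap, by 1.67-fold (log2 change 0.74, SE 0.24, edgeR adjusted p = 0.0453) and 2.62-fold (log2 change 1.39, SE 0.24, edgeR adjusted p = 7.08e-04). The call at UUO-7 was lost with library totals alone and without replicate 1, 2, 4 or 5. The summed PDGFR-β list of the ECs spread from 7663 to 46035 CPM at R-UUO against 11309 to 24337 CPM in sham and 8168 to 17398 CPM at UUO-7, and its part in the result was not tested. miR-322-3p in ECs gave a log2 change of 0.10 at R-UUO (SE 0.13) and was not called.

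In Macs, miR-322-5p was lower at UUO-7 and higher again at R-UUO. It measured 678, 722, 934 and 786 CPM in sham, 630.2, 595, 476 and 613 CPM at UUO-2, 615, 419, 489.6 and 427 CPM at UUO-7 and 787, 717, 886 and 604 CPM at R-UUO. The UUO-7 libraries lay below sham and overlapped R-UUO, and the fall was 1.60-fold (log2 change -0.68, SE 0.16, edgeR adjusted p = 0.00204), a call that was lost with library totals alone and without replicate 3. The rise from UUO-7 to R-UUO was 1.54-fold (log2 change 0.62, SE 0.16, edgeR adjusted p = 0.00926) and lost its call with library totals alone, with no filter, with the compared groups only and without replicate 3 or 4. miR-322-3p was 1.88-fold lower at UUO-2 (log2 change -0.91, SE 0.24, edgeR adjusted p = 0.00685), with 136, 99.8, 185 and 116 CPM in sham and 78.8, 84.2, 62.9 and 58.7 CPM at UUO-2 and no overlap.

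Whether a change differed between cell types was tested as the change of 1 cell type less the mean change of the other 3, with an adjusted p under 0.05 over 671 loci as the call. At UUO-7 the difference was called for 6 of 9 members in PDGFR-β+ cells (23.7% of all loci), 7 in PT cells (25%), 1 in Macs (21.5%) and 1 in ECs (11.9%). Both loci of miR-16-5p are among those of PDGFR-β+ cells and PT cells. With the loci of a name summed, the members called were 5 in PDGFR-β+ cells and 6 in PT cells. The largest in PDGFR-β+ cells were those of miR-322-3p, at -2.98 (SE 0.34, edgeR adjusted p = 3.78e-10), miR-322-5p, at -2.57 (SE 0.49, edgeR adjusted p = 3.58e-05), and miR-15b-5p, at 1.95 (SE 0.27, edgeR adjusted p = 6.30e-08). Among PT cells the differences of miR-322-5p, at 2.55 (SE 0.48, edgeR adjusted p = 2.58e-05), and miR-322-3p, at 2.52 (SE 0.32, edgeR adjusted p = 1.30e-08), had the opposite sign to those in PDGFR-β+ cells. Since each contrast contains the other 3 cell types, these values are not independent of one another. miR-15a-5p differed in each of the 4, with -0.98 in PDGFR-β+ cells, -0.72 in Macs, 0.74 in PT cells and 0.96 in ECs. With library totals alone the calls of miR-15a-5p other than that in ECs, and those of miR-16-5p and miR-195a-5p, were lost. In PT cells the calls of miR-15a-5p, miR-16-5p and miR-195a-5p were also lost with DESeq2, with its size factors, with no filter and in at least 3 of the fits that left out 1 replicate, and that of miR-15b-5p, at -0.90, was lost with no filter and without replicate 2 or 3. The call of miR-15a-5p in Macs was lost with DESeq2, with its size factors and without any 1 of replicates 1 to 4, and that in ECs without replicate 2. In PDGFR-β+ cells the calls of both miR-16-5p loci were lost with no filter and without replicate 2 or 4. The differences of miR-15b-5p in PDGFR-β+ cells, and those of the miR-322 arms there and in PT cells, were called under every alternative tried.

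At UUO-2 the difference was called for 1 of 9 members in PDGFR-β+ cells (6.56% of all loci), 2 in PT cells (11.8%) and 2 in Macs (9.39%). In ECs edgeR called 0 members (0.149%), with 1 under an unadjusted p of 0.05 and 0 called by DESeq2. The called differences were that of miR-15b-5p in PDGFR-β+ cells, at 1.12 (SE 0.26, edgeR adjusted p = 0.00264), and those of the miR-322 arms in PT cells and Macs. For miR-322-5p they were 2.33 in PT cells (SE 0.47) and -1.45 in Macs (SE 0.44). The calls in PT cells held under every alternative tried, and those of miR-15b-5p and of Macs were lost without replicate 3 or 4. The call of miR-15b-5p was also lost with no filter, that of miR-322-5p in Macs with DESeq2, with its size factors, with summed loci of a name and without replicate 2, and that of miR-322-3p in Macs with library totals alone. No difference at UUO-7 is given for miR-503-5p, because it had no counts in sham and UUO-7 PT cells.

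The loci most like each member over the 63 libraries, by Pearson r of log2 CPM among all loci past the filter, are given as a description of libraries that share cell types, mice and depth. For miR-322-5p they were its neighbours miR-450b-5p (r = 0.949) and both loci of miR-450a-5p (r = 0.946 and 0.930), and for miR-503-5p they were the 2 loci of miR-450a-5p (r = 0.840 and 0.816) and miR-351-5p (r = 0.821). miR-195a-5p was most like miR-7224-3p (r = 0.932), miR-181c-5p (r = 0.910) and the chromosome 10 locus of miR-26a-5p (r = 0.908). miR-15b-5p was most like miR-342-3p (r = 0.911), miR-340-3p (r = 0.897) and the leukocyte marker miR-142a-3p (r = 0.882). For miR-15a-5p the nearest loci were miR-339-5p (r = 0.916), miR-3964 (r = 0.873) and miR-339-3p (r = 0.866), so the partners of the miR-15a and miR-15b arms did not coincide.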

How the data were processed

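Small RNA of 4 sorted kidney cell populations from 16 mice was measured in 63 libraries, which were grouped from the sample labels. The authors trimmed the reads with Trim Galore 0.4.1 and cutadapt 1.1, mapped them against GRCm38 and miRBase by ShortStack, which wraps Bowtie, and deposited a table of raw counts for each locus of each mature miRNA, with no normalization. How reads with several placements were assigned and which strand was counted are not given in the sources used here. A pooled column (1 in all) belongs to no sample and was not used. The members were taken by name, and members, gene lists and marker lists were chosen with earlier results of these data known.

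Counts were analysed with edgeR 4.0.16 in R 4.3.3: filterByExpr, TMM scaling, a prior count of 2 for log2 CPM, and the quasi-likelihood test with Benjamini-Hochberg adjustment over all loci tested. "edgeR adjusted p" stands for this value. The SE of an edgeR log2 change was derived as its absolute size divided by the square root of the F statistic of this test. Calls required an FDR under 0.05 and a change above 1.5-fold, or the FDR alone for differences of changes. Injury comparisons used all libraries of 1 cell type (4 conditions), and cell type comparisons used all 16 groups. Ratios within a library used counts plus 0.5 and two-sided exact permutation tests. Named loci were the members, their opposite arms, the chromosome X neighbours, other miRNAs with the seed, the 3 loci most like each of 5 members, and the marker lists (ECs, leukocytes, PT cells, PDGFR-β+ cells, red blood cells, lymphocytes and other epithelium).

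Library totals of 616565 to 10819385 counts limit the precision for the least abundant members, and a count of 0 allows up to 3 counts. The cell types of 1 mouse share its replicate number. Their deviations from the group means correlated with a median r of 0.05 over 93 pairs, and 31 pairs exceeded 0.1. The fits were tested on simulated data with known changes. Alternatives were DESeq2 1.42.0, its size factors in edgeR, library totals alone, no filter, a replicate block, compared groups only, summed loci of a name, and each replicate left out. The PT fit without the R-UUO library of replicate 1 and the changes relative to the median of all loci were added after seeing the data.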

Additional observations from a re-analysis of the deposited data

Results flagged for a closer look

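Of the 133 groups of 4 libraries checked, 6, about the 1 in 20 that chance gives, held a library far from the other 3 (CPM within the cell type). For miR-322-5p the R-UUO PT library of replicate 1 stood at 1491 CPM, with the others between 89.4 and 189 CPM. The same library stood at 104.3 CPM for miR-497a-5p (others 26.1 to 34.8 CPM) and at 2.25 CPM, or 3 counts, for miR-503-5p (others 0). The UUO-2 PT library of replicate 2 had 3.63 CPM of miR-503-5p, or 4 counts, where the others had 0. In ECs the sham library of replicate 3 had 237.5 CPM of miR-15a-5p (others 203.0 to 207.9 CPM), and in Macs the UUO-2 library of replicate 3 had 33.0 CPM of miR-497a-5p (others 44.2 to 45.5 CPM).

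The change against sham of 1 cell type differed from the mean change of the other 3 in 20 tests of the difference itself (edgeR's quasi-likelihood test, Benjamini-Hochberg adjusted over 671 loci). At UUO-7 the log2 difference of miR-15a-5p was -0.98 for PDGFR-β+ cells, -0.72 for Macs, 0.74 for PT cells and 0.96 for ECs. That of miR-15b-5p was 1.95 in PDGFR-β+ cells, after 1.12 there at UUO-2, and -0.90 in PT cells, a call that was lost with no filter and without replicate 2 or 3. For miR-16-5p it was -0.46 in PDGFR-β+ cells and 0.52 in PT cells at the chromosome 14 locus, and -0.46 and 0.53 at the chromosome 3 locus, which is the same mature sequence. miR-195a-5p differed by 0.85 in PT cells at UUO-7. The PT calls of miR-15a-5p, miR-16-5p and miR-195a-5p were lost with DESeq2, with its size factors and with no filter. Limits of the other calls are given with these differences in the results. For miR-322-5p the difference was -1.45 in Macs and 2.33 in PT cells at UUO-2, and at UUO-7 it was -2.57 in PDGFR-β+ cells and 2.55 in PT cells. For miR-322-3p it was -1.30 in Macs and 2.15 in PT cells at UUO-2, and at UUO-7 it was -2.98 in PDGFR-β+ cells and 2.52 in PT cells.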

How the results depend on the processing

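The member comparisons called numbered 81, with both loci of miR-16-5p counted. Of these, 58 kept their direction and call under every other test, scaling, filter and fit listed in the methods, and 61 kept both with each replicate left out in turn. Of the 33 called comparisons with injury or reversal, 26 and 25 did so. With library totals alone, miR-16-5p in PDGFR-β+ cells turned to 0.09074 and 0.08868 (chromosome 14 and 3 loci) at UUO-7 against UUO-2 and to 0.09296 and 0.09265 against sham. Under the same scaling its difference of change at UUO-7 turned to 0.08911 and 0.09069 in PDGFR-β+ cells and to -0.1659 and -0.1506 in PT cells, miR-195a-5p in PDGFR-β+ cells turned to 0.07431 at UUO-7 against UUO-2, and the difference of miR-497a-5p in PT cells at UUO-7 turned to -0.05917. This scaling also moved the median of all loci; beyond that the cause was not tested. The members called at R-UUO against UUO-7 numbered 3 with the compared groups only against 5, and those at UUO-7 against UUO-2 numbered 8 with DESeq2 and with its size factors against 5. Leaving out replicates gave 10 to 21 called differences of changes (20 with all). It gave 8 to 14 ratios without overlap (8 with all), where smaller groups also overlap less readily. Across conditions the replicate numbers did not pair the libraries: the median correlation of deviations was -0.02 over 62 pairs, 13 exceeded 0.1, and 14 of 62 libraries were most like their own number. With the replicate block the counts of called members were 4 at UUO-2, 11 at UUO-7 (10 without), 5 at UUO-7 against UUO-2, 5 at R-UUO against UUO-7, 9 at R-UUO against sham, 28 for cell types and 20 for differences of changes. Depth limits miR-503-5p most, with 0 to 40 counts per library.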
